A study of Mus musculus with 2 samples.

Results

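Paneth cells are secretory epithelial cells at the base of the crypts of the small intestine, and in the mouse they form after birth. Their granules hold alpha-defensins, which are small cationic peptides that kill bacteria, together with lysozyme and other antimicrobial proteins. The matrilysin MMP7 cuts mouse alpha-defensin precursors into their active form. The genes described here were 8 Paneth cell genes taken by symbol from the deposited table of 18159 genes, namely the alpha-defensin genes *Defa17*, *Defa21*, *Defa22* and *Defa24*, the lysozyme gene *Lyz1*, the angiogenin family gene *Ang4*, the protease gene *Mmp7* and the intelectin gene *Itln1*. All 8 were listed.

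The tissue was smooth muscle of the jejunum, isolated at 15 days of age (P15) by peeling the tunica muscularis off the mucosa. *Dnmt1*-KO mice carried a Cre-eGFP transgene driven by the *Myh11* promoter, which is active in smooth muscle cells (SMCs), and floxed alleles of *Dnmt1*, the maintenance DNA methyltransferase, on a C57BL/6 background. *Dnmt1*-WT mice carried the same Cre-eGFP transgene. The sample labels give the Tg(Myh11-cre,-EGFP) transgene with Dnmt1lox/lox for both genotypes and a free-text description naming the knockout for both, while the titles and genotype labels give 1 *Dnmt1*-WT and 1 *Dnmt1*-KO library. Epithelial cells were therefore neither the target of the Cre driver nor the tissue that was isolated. RNA of several mice of both sexes stood behind each genotype, and how it was combined is not given in the sources used here. With 1 library for each genotype there was no spread between replicates, no test was made, and every difference below compares these 2 libraries.

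Values were in FPKM (fragments scaled by transcript length and by the number of mapped fragments), so levels can be set beside each other across genes of different length. Log2 ratios compare *Dnmt1*-KO with *Dnmt1*-WT after 0.1 was added to each FPKM, and a positive value means a higher level in the *Dnmt1*-KO library. *Dnmt1* itself was listed at 11.58 FPKM in *Dnmt1*-WT and 7.58 FPKM in *Dnmt1*-KO. Defining SMC genes were present, as the 10 listed SMC genes lay between 29.06 and 5408.13 FPKM in *Dnmt1*-WT, and all 10 were lower in *Dnmt1*-KO. The FPKM of all genes summed to 429698 and 460845, and each library had 0.03 FPKM as its smallest listed value other than 0. The read counts behind single genes are unknown, so no counting error could be attached to any value.

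All 8 Paneth cell genes were listed at a higher FPKM in the *Dnmt1*-KO library, against 51.5% of the 17585 genes above 0 FPKM in at least 1 library. The ratio of FPKM + 0.1 was at least 2 for 7 of the 8, where the background was 12.4%. Of all genes 1.35% reached a ratio of 8, a size chosen with the median of the 8 Paneth cell genes known from earlier results. This size was reached by 5 of the 8. This last count depended on the settings, being 2 with 1 FPKM added in place of 0.1 and 1 when ratios were centred on pan-epithelial or on enterocyte genes. The median log2 ratio was 3.09 for the 8 genes and 0.02 for all 17585 genes. Centring on pan-epithelial genes lowered the median of the 8 genes to 2.10, and centring on enterocyte genes to 2.41. *Mmp7* was listed at 0 in *Dnmt1*-WT, so its ratio rests on the added 0.1. Among the other 7 genes 6 reached a ratio of 2 and 4 a ratio of 8, and the median log2 ratio was 3.05. Together the 8 genes summed to 22.07 FPKM in *Dnmt1*-WT and 227.61 FPKM in *Dnmt1*-KO. These sums were 0.00514% and 0.0494% of all FPKM in their library, so Paneth cell transcripts were a minor part of both.

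The levels of the 8 genes in the 2 libraries differed widely among themselves. In *Dnmt1*-WT only *Defa24* exceeded 10 FPKM, 5 genes lay between 1.07 and 3.90 FPKM, and *Ang4* and *Mmp7* were below 1. In *Dnmt1*-KO the order ran from *Defa24* through *Defa21*, *Defa22*, *Lyz1*, *Defa17* and *Itln1* to *Mmp7* and *Ang4*. Without replicates it cannot be said which neighbours in this order differ, and *Defa21* and *Defa22*, as well as *Lyz1* and *Defa17*, were within 1 FPKM of each other in *Dnmt1*-KO. Weakly expressed genes reach large ratios more easily. Among the 9367 genes between 1 and 20 FPKM in *Dnmt1*-WT, a range that holds 6 of the Paneth cell genes, 6.42% had a ratio of at least 2 and 0.523% a ratio of at least 6. All 6 Paneth cell genes in that range had a ratio of at least 6, a size chosen with their values known, and 4 had a ratio of at least 8. With ratios centred on pan-epithelial genes 1 of the 6 reached a ratio of 6, and with centring on enterocyte genes 3 did.

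**Figure D1:**
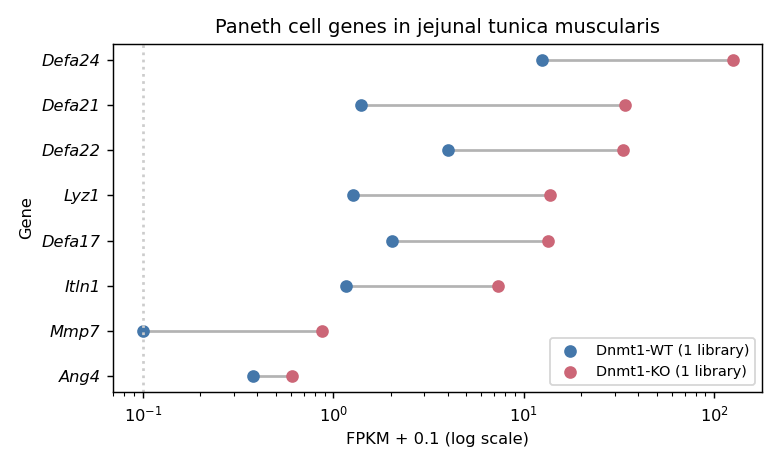
FPKM + 0.1 on a log axis for the 8 Paneth cell genes, with 1 point for the *Dnmt1*-WT library and 1 for the *Dnmt1*-KO library. Every *Dnmt1*-KO point lies to the right of its *Dnmt1*-WT point, from 0.28 and 0.51 FPKM for *Ang4* up to 12.43 and 125.32 FPKM for *Defa24*, and the dotted line marks genes listed at 0.

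The 4 alpha-defensin genes lie in 1 cluster on chromosome 8 of GRCm38, between 21025545 and 21735471, a span of 710 kb, and all are protein coding and on the plus strand. GENCODE release M21 places 39 genes with a *Defa* symbol on this chromosome, 22 of them protein coding. The promoters of *Defa21* and *Defa22* are printed here because both genes were far higher in *Dnmt1*-KO and because their RefSeq windows (GRCm38.p6, 250 bases before and 50 after the start site) were the same in every base. The 150 bases before the start site, at chr8:21025395-21025544 for *Defa21* and chr8:21162127-21162276 for *Defa22*, both on the plus strand, read 5′ to 3′ as follows, with TCF motifs (ATCAAAG) and the TATA motif (TATAAA) in capitals.
Defa21: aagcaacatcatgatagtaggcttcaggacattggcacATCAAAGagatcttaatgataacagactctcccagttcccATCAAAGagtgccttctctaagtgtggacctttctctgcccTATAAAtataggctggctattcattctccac
Defa22: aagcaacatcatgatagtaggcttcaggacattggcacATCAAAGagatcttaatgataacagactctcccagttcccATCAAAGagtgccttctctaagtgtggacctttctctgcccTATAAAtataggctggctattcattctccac

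TCF factors are the DNA-binding partners of beta-catenin in Wnt signaling, a pathway known to act in Paneth cells. Both motifs were searched on both strands of all 300-base windows, and they do not overlap each other. RefSeq windows were matched for 6 of the 8 Paneth cell genes, and *Defa17* and *Defa24* had no entry. Of 16 windows of genes with a *Defa* symbol, 13 held a TCF motif and 9 held more than 1, while 3.73% of all 32851 windows held 1 or more and 0.1% held more than 1. The TATA motif was present in 15 of the 16 and in 13.6% of all windows. In each of the 9 windows with a pair of TCF motifs the first bases of the pair were 40 bases apart. The motifs of *Defa21* and *Defa22* began at -112 and -72, and their TATA motif began at -31. The windows are copies of a duplicated gene and are not independent of each other. Matches describe the sequence only. They were not tested as binding sites, and nothing was measured at them here.

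**Figure D2:**
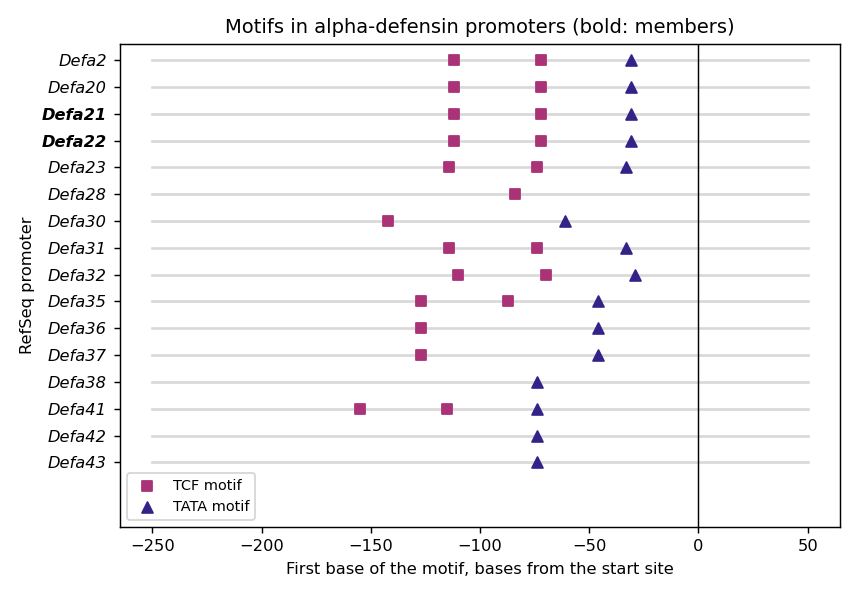
First base of each TCF and TATA motif, in bases from the start site, in the 16 RefSeq promoter windows of genes with a *Defa* symbol. The pair of TCF motifs recurs at a spacing of 40 bases in 9 windows, among them those of *Defa21* and *Defa22* at -112 and -72.

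CpG dinucleotides, the sites that DNMT1 methylates, were few in the *Defa* windows. *Defa21* and *Defa22* each had 1 CpG in 300 bases and *Lyz1* had 2. *Ang4* had 5, *Itln1* had 0, and the windows of the 2 *Mmp7* start sites had 1 and 7. The 16 *Defa* windows held between 0 and 3, and the median over all 32851 windows was 7, with quartiles of 3 and 20. DNA methylation was not analysed here.

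*Defa24*, which encodes an alpha-defensin precursor, was the most abundant of the 8 genes in both libraries. It was listed at 12.43 FPKM in *Dnmt1*-WT and 125.32 FPKM in *Dnmt1*-KO, and its log2 ratio was 3.32. By level it stood at position 5557 of the 18159 genes in *Dnmt1*-WT and at position 537 in *Dnmt1*-KO. *Defa24* lies on chromosome 8 from 21734494 to 21735471.

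*Defa21*, on chromosome 8 from 21025545 to 21026516, had the largest log2 ratio of the 8 genes with 0.1 added, although *Mmp7* exceeded it with 0.01 added (6.29 against 4.70) and *Defa24* differed by more FPKM. Its level was 1.29 FPKM in *Dnmt1*-WT and 33.75 FPKM in *Dnmt1*-KO, with a log2 ratio of 4.61. Only 49 of the 17585 genes had a larger log2 ratio. *Defa22*, on chromosome 8 from 21162277 to 21163249, reached nearly the same level in *Dnmt1*-KO, 33.13 FPKM, but started from 3.90 FPKM in *Dnmt1*-WT, so that its log2 ratio was 3.05. The annotated transcripts of *Defa21* and *Defa22* differ in 3 positions of their alignment, an identity of 99.3%. Reads from their shared stretches cannot be assigned to either one, and their summed level of 5.19 FPKM in *Dnmt1*-WT and 66.88 FPKM in *Dnmt1*-KO, a ratio of 12.9, is less open to that assignment.

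*Defa17*, on chromosome 8 from 21655780 to 21656735, was listed at 1.93 FPKM in *Dnmt1*-WT and 13.29 FPKM in *Dnmt1*-KO, a log2 ratio of 2.72. It had the smallest log2 ratio of the 4 alpha-defensin genes. *Defa3* has a transcript that is 96.6% identical to that of *Defa17*, and its row of the table was at 0 FPKM in *Dnmt1*-WT and 2.47 FPKM in *Dnmt1*-KO. The 2 rows summed to 1.93 and 15.76 FPKM. RefSeq also lists *Defa3* as a synonym of *Defa17*, so which gene the *Defa3* row measures is uncertain.

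The 4 alpha-defensin genes summed to 19.55 FPKM in *Dnmt1*-WT and 205.49 FPKM in *Dnmt1*-KO, a ratio of 10.5. Centring on pan-epithelial genes lowered this ratio to 5.31, and centring on enterocyte genes to 6.59. *Defa24* made up 63.6% of this sum in *Dnmt1*-WT and 61.0% in *Dnmt1*-KO. *Defa21* made up 6.6% and 16.4%, *Defa22* 19.9% and 16.1%, and *Defa17* 9.87% and 6.47%. The composition was thus led by *Defa24* in both.

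How far reads can tell the genes apart was measured on the GENCODE transcripts by counting the stretches of each transcript that also occur in another gene. Of the 50-base windows of *Defa17*, 92.0% occurred in another gene, and the shares were 74.9% for *Defa22*, 72.9% for *Defa21* and 28.1% for *Defa24*. For windows of 100 bases they were 90.6%, 40.3%, 40.4% and 0%. Outside the alpha-defensins the 50-base shares were 16.1% for *Lyz1*, 4.70% for *Ang4*, 1.01% for *Itln1* and 0% for *Mmp7*. The read length is not given in the sources used here. The values of *Defa17*, *Defa21* and *Defa22* as single genes are therefore uncertain, and family sums depend less on how reads were split. The sum of the 4 genes still leaves out genes that share windows with them. *Defa3* holds 92.0% of the 50-base windows of *Defa17*, and *Defa30* holds 26.5% of those of *Defa24*.

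**Figure D3:**
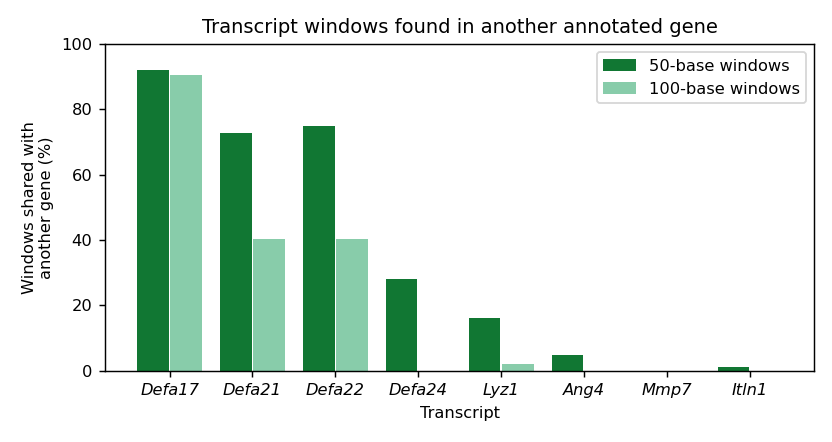
Share of the 50-base and 100-base windows of each annotated transcript that also occur in a transcript of another gene, in percent. *Defa17* shares 92.0% and 90.6%, *Defa21* and *Defa22* lie between 40.3% and 74.9%, and *Mmp7* shares none.

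Besides the 4 genes named above, 6 further rows with a *Defa* symbol were examined, and 5 of these were higher in *Dnmt1*-KO. *Defa5* was listed at 0.04 FPKM in *Dnmt1*-WT and 4.13 FPKM in *Dnmt1*-KO, and *Defa20*, a symbol that RefSeq also lists as a synonym of *Defa32*, at 0.14 and 3.41 FPKM. *Defa3*, *Defa26* and the pseudogene *Defa-ps1* were listed at 0 in *Dnmt1*-WT and at 2.47, 1.97 and 5.58 FPKM in *Dnmt1*-KO. *Defa2* was the exception, with 0.66 FPKM in *Dnmt1*-WT against 0 in the *Dnmt1*-KO library.

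A further 9 rows carry a symbol that RefSeq lists as an older name of a *Defa* gene, and all 9 were higher in *Dnmt1*-KO, with 6 of them listed at 0 in *Dnmt1*-WT. The most abundant was *Gm15284* (*Defa30*), at 9 FPKM in *Dnmt1*-WT and 59.24 FPKM in *Dnmt1*-KO. This *Dnmt1*-KO level was second only to that of *Defa24* among the 19 alpha-defensin rows described here. *Gm21002* is an older name of *Defa33*, whose transcript differs from that of *Defa2* in 1 aligned position. It was listed at 0.03 FPKM in *Dnmt1*-WT and 2.46 FPKM in *Dnmt1*-KO, and the summed level of *Defa2* and *Gm21002* was 0.69 and 2.46 FPKM. Over these 19 alpha-defensin rows the sum was 30.48 FPKM in *Dnmt1*-WT and 301.81 FPKM in *Dnmt1*-KO, a ratio of 9.90. Of the 19 rows 18 were higher in *Dnmt1*-KO, beside 51.5% of the genes above 0 FPKM in at least 1 library. The 9 rows at 0 in *Dnmt1*-WT could not be lower in *Dnmt1*-KO. Rows of near-identical genes share reads and are not independent observations.

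**Figure D4:**
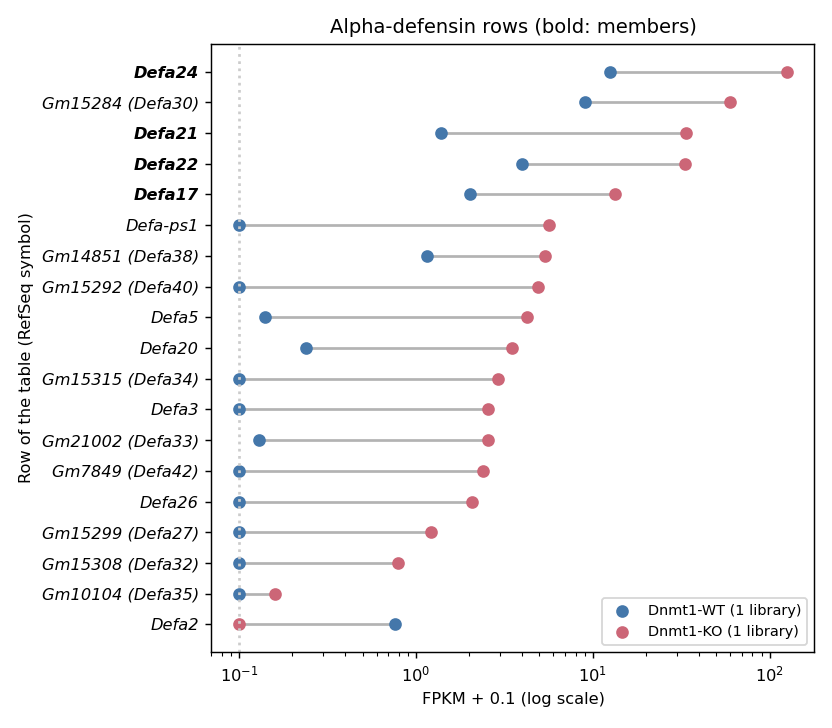
FPKM + 0.1 on a log axis for the 19 alpha-defensin rows described here in *Dnmt1*-WT and *Dnmt1*-KO, sorted by the *Dnmt1*-KO level, with current RefSeq symbols in parentheses for rows under older names. All rows but *Defa2* lie higher in *Dnmt1*-KO, and points on the dotted line were listed at 0.

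*Lyz1*, the lysozyme gene of Paneth cells, lies on chromosome 10 from 117287797 to 117292868 on the minus strand, next to *Lyz2*, the lysozyme gene of macrophages. *Lyz1* was listed at 1.17 FPKM in *Dnmt1*-WT and 13.61 FPKM in *Dnmt1*-KO, a log2 ratio of 3.43. *Lyz2* was listed at 27.84 and 112.85 FPKM, a ratio of 4.05. *Lyz1* thus amounted to 4.20% of *Lyz2* in *Dnmt1*-WT and 12.1% in *Dnmt1*-KO. All 11 listed macrophage genes were higher in *Dnmt1*-KO, their summed level being 126.66 FPKM in *Dnmt1*-WT and 414.8 FPKM in *Dnmt1*-KO, with none at 0. Their part in the *Lyz1* value was not tested. The annotated transcripts of the 2 lysozyme genes are 92.0% identical.

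The promoters of the lysozyme pair are shown because they stem from a duplication and their genes belong to different cell types. The 150 bases before the start site are at chr10:117292869-117293018 for *Lyz1* and chr10:117282273-117282422 for *Lyz2* (GRCm38.p6, minus strand, 5′ to 3′). They differ at 21 of the 150 positions, and the last 50 bases before the start site are identical. GENCODE M21 places the start of *Lyz2* at 117282321, inside the *Lyz2* stretch, so by that annotation part of this stretch lies within the gene. Neither stretch contains the TCF or the TATA motif, so no base is in capitals.
Lyz1: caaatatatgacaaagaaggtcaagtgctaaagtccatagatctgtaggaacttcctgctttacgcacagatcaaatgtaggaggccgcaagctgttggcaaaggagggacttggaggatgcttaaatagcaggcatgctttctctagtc
Lyz2: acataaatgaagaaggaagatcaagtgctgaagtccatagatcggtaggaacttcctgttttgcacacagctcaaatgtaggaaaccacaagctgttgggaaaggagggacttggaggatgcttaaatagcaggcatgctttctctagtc

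*Mmp7*, on chromosome 9 from 7692090 to 7699585 on the plus strand, encodes the protease that processes alpha-defensin precursors. It was listed at 0 in *Dnmt1*-WT and 0.77 FPKM in *Dnmt1*-KO. Its log2 ratio, 3.12, is set by the added 0.1 and was 6.29 with 0.01 added and 0.82 with 1 added. *Mmp7* was thus near the lower end of the scale in both libraries. Its upstream RefSeq window held TATA motifs at -123 and -26 and a TCF motif at 5. Of the 9 listed relatives of the lysozyme, angiogenin and metalloprotease genes, 8 were above 0 and all 8 were higher in *Dnmt1*-KO, 3 of them with a ratio of at least 2, and the median log2 ratio was 0.72. Among them the stromelysin gene *Mmp10* was listed at 0.14 and 1.39 FPKM.

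*Ang4*, on chromosome 14 from 51763878 to 51773590 on the minus strand, encodes a bactericidal ribonuclease of Paneth and goblet cells. Its level was 0.28 FPKM in *Dnmt1*-WT and 0.51 FPKM in *Dnmt1*-KO, and its log2 ratio of 0.68 was the lowest of the 8 genes and turned to -0.30 when ratios were centred on pan-epithelial genes. It was also the only one of them below a ratio of 2. *Ang*, the related angiogenin gene expressed in many tissues, was listed at 10.05 and 15.31 FPKM.

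*Itln1*, on chromosome 1 from 171518122 to 171535294 on the minus strand, encodes a lectin that binds microbial sugars and is made by Paneth and goblet cells. It was listed at 1.07 FPKM in *Dnmt1*-WT and 7.23 FPKM in *Dnmt1*-KO, with a log2 ratio of 2.65. In both libraries its level was above that of *Ang4*, the other member known from both lineages.

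Other products of Paneth cells gave mixed values. Of 10 genes listed as further Paneth cell effectors, 8 were in the table, 6 of them were higher in *Dnmt1*-KO and 4 had a ratio of at least 2. Their median log2 ratio was 1.16, below the 3.09 of the 8 Paneth cell genes. *Pla2g2a*, a gene of the secreted phospholipase family, was listed at 0.71 FPKM in *Dnmt1*-WT and 7.73 FPKM in *Dnmt1*-KO. The mucosal pentraxin genes differed from each other, with *Mptx2* at 0 and 1.83 FPKM and *Mptx1* at 0.60 and 0.66 FPKM. *Guca2a*, the guanylin gene, was listed at 10.32 and 59.97 FPKM. The lower genes were *Clps*, at 10.95 FPKM in *Dnmt1*-WT and 3.47 FPKM in *Dnmt1*-KO, and *Pnliprp2*, at 0.80 and 0.40 FPKM. Both are best known from the pancreas, and all 7 listed genes of pancreatic acinar cells were lower in *Dnmt1*-KO, with a summed level of 42.96 FPKM in *Dnmt1*-WT and 1.26 FPKM in *Dnmt1*-KO. Their part in the values of *Clps* and *Pnliprp2* was not tested.

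Antimicrobial lectins of the Reg family, secreted by Paneth cells and enterocytes, included some of the larger ratios. *Reg3b* was listed at 2.46 FPKM in *Dnmt1*-WT and 29.58 FPKM in *Dnmt1*-KO, and *Reg3g*, which kills Gram-positive bacteria, at 0.87 and 12.41 FPKM. *Reg3a* was at 0.23 and 1.12 FPKM. The list held 7 Reg genes and *Retnlb*, a goblet cell gene of the RELM family. Of these 8 genes 4 were higher, 2 were lower, and *Reg2* and *Retnlb* were at 0 in both libraries. The lower ones were *Reg1*, which is abundant in the pancreas, at 5.21 and 2.52 FPKM, and *Reg3d*, at 0.34 and 0 FPKM.

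Genes that specify Paneth cells or form their niche, several of them broadly expressed, had a lower median. Of 16 such genes 12 were higher in *Dnmt1*-KO, 5 had a ratio of at least 2, none had a ratio of at least 8, and the median log2 ratio was 0.44. *Atoh1*, the transcription factor of all secretory lineages, was at 0 and 0.04 FPKM, and *Sox9*, which is required for Paneth cells, at 0.33 and 1.01 FPKM. *Gfi1* and *Spdef*, factors of secretory differentiation, were also higher in *Dnmt1*-KO but low in both libraries, at 0.04 and 0.24 FPKM and at 0.07 and 0.25 FPKM. *Xbp1*, a factor of secretory cells in general, was at 44.25 and 50.4 FPKM. The 4 lower genes were *Fzd5* (9.18 and 5.52 FPKM), *Tcf7l2* (16.1 and 11.63 FPKM), *Atg16l1* (10.64 and 7.77 FPKM) and *Egf* (0.5 and 0.17 FPKM).

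The Paneth cell genes were set beside other cell types of the gut. Of the 12 pan-epithelial genes 11 were higher in *Dnmt1*-KO, with a median log2 ratio of 0.99, and their summed level was 137.28 FPKM in *Dnmt1*-WT and 258.74 FPKM in *Dnmt1*-KO. *Epcam*, a surface protein of all gut epithelium, was listed at 7.30 and 13.95 FPKM, and none of the 12 genes was at 0. Of the 14 enterocyte genes 9 were higher and 5 were lower, beside 51.5% higher among all genes, with a median of 0.67. Their sums were 520.77 and 1090.51 FPKM, and none was at 0. The 3 enterocyte genes at or below a ratio of 0.5 were *Sis* (1.93 and 0.51 FPKM), *Treh* (1.55 and 0.4 FPKM) and *Slc15a1* (0.67 and 0.28 FPKM). The part of pan-epithelial and enterocyte transcripts in the Paneth cell result was not tested. In bulk RNA more cells of a type and more RNA per cell cannot be told apart.

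The sum of the 8 genes, led by *Defa24*, was also set against epithelial transcripts. The summed level of the 8 genes was 0.161 times that of the pan-epithelial genes in *Dnmt1*-WT and 0.880 times in *Dnmt1*-KO, a 5.47-fold difference. *Krt19*, which is also expressed in the mesothelium, made up much of the epithelial sum at 96.08 and 188.37 FPKM, and without it the difference was 6.04-fold. Relative to *Epcam* alone it was 5.40-fold. The log2 ratios of 7 of the 8 Paneth cell genes exceeded the highest value among the pan-epithelial genes, 1.80, and likewise the highest among the enterocyte genes, 1.79, and the macrophage genes, 2.06. *Ang4* was the exception in each case, and without *Mmp7* these counts were 6 of 7. Against the goblet cell genes only 1 of the 8, *Defa21*, exceeded the highest value, 3.64 for *Spink4*. No test of these differences between lists was possible with 1 library per genotype.

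Goblet cells share their progenitors with Paneth cells. Of the 8 goblet cell genes 7 were higher in *Dnmt1*-KO, but the median log2 ratio was 0.55, and only 2 had a ratio of at least 2. *Muc2*, the main intestinal mucin, was at 2.31 FPKM in *Dnmt1*-WT and 4.24 FPKM in *Dnmt1*-KO, and *Tff3* at 39.55 and 66.05 FPKM. The 1 lower gene was *Zg16*, at 63.1 and 38.22 FPKM, and it was the most abundant of the list in *Dnmt1*-WT. *Spink4* was listed at 5.26 and 66.6 FPKM, a log2 ratio of 3.64, which was above that of all 8 Paneth cell genes except *Defa21*. *Clca1* was listed at 0.14 and 1.33 FPKM, and its log2 ratio of 2.57 was close to that of *Itln1*. The other 6 goblet cell genes had log2 ratios of at most 0.85. Of the genes of crypt stem cells, neighbours of Paneth cells, *Lgr5* was at 0.18 FPKM in both libraries and *Olfm4* at 1.02 and 4.55 FPKM. The list of 6 stem cell genes had a median of -0.51, with 1 gene higher and 4 lower in *Dnmt1*-KO. Lower were *Ascl2*, at 0.19 and 0.03 FPKM, *Axin2*, at 8.23 and 6.36 FPKM, and the most abundant genes, *Smoc2* and *Rgmb*. *Smoc2* was at 174.7 and 101.67 FPKM and *Rgmb* at 127.27 and 80.45 FPKM. Both stood far above *Lgr5*, the defining gene of these cells, so the median of this list is no measure of stem cell transcripts. Of 8 enteroendocrine genes 6 were higher in *Dnmt1*-KO, with a median of 0.21, and 2 hormone genes had a ratio of at least 2, *Gcg* at 0.42 and 1.81 FPKM and *Sct* at 0.65 and 3.13 FPKM. The most abundant of these 8 genes, *Chgb* and *Chga*, were at 31.59 and 34.75 FPKM and at 20.79 and 25.26 FPKM. The median was 0.07 for 3 listed tuft cell genes, which is the value of *Dclk1* at 16.09 and 16.9 FPKM. *Trpm5* was at 0.61 and 0.47 FPKM and *Pou2f3* at 0.25 and 0.49 FPKM. Which cells these transcripts came from was not tested.

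**Figure D5:**
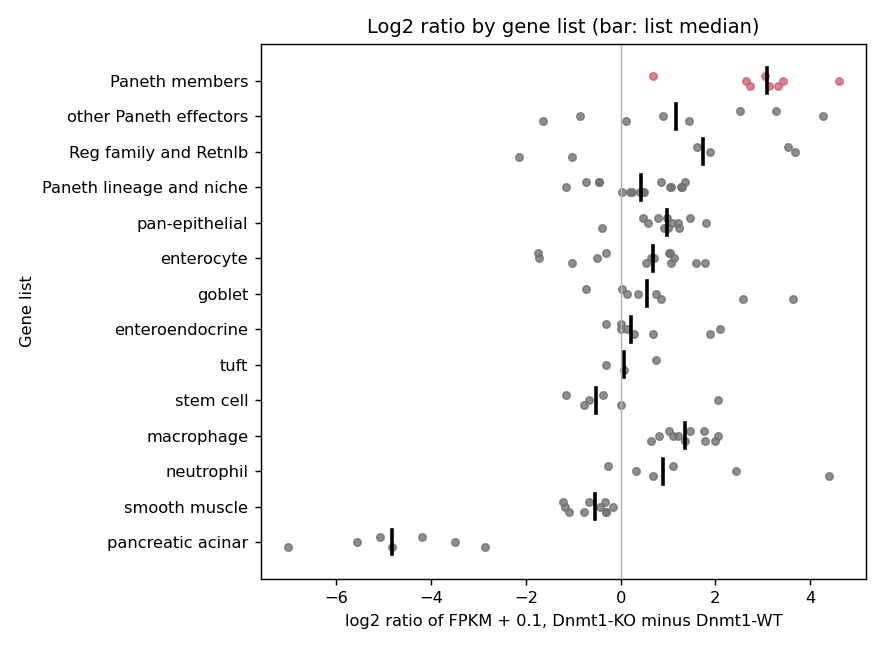
Log2 ratio of FPKM + 0.1, *Dnmt1*-KO minus *Dnmt1*-WT, with 1 point for each gene above 0 in at least 1 library and a bar at the median of each list. The 8 Paneth cell genes have a median of 3.09, against 1.16 for other Paneth cell effectors. It is 0.99 for pan-epithelial, 0.67 for enterocyte and 0.55 for goblet cell genes.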

How the data were processed

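The authors deposited FPKM per gene for 1 library of each genotype, with transcript variant numbers and their own ratio, which were not used. TruSeq libraries of total RNA were mapped to GRCm38, and the submitters' processing notes name TopHat 1.4.1 and Cufflinks 2.0.2. The annotation and the treatment of reads that map to several genes are not given in the sources used here. Genes were matched by symbol. Counts past a fold used the ratio of FPKM + 0.1 without rescaling. The code for these ratios was tested on simulated data, which is no test of the genotypes. The genes named are the 8 members, the alpha-defensin rows, genes of the lists, *Dnmt1* and the 5 genes closest to the median member. The members and lists were chosen with earlier results of these data known. 1 further alpha-defensin row is not reported here. Rows under older *Defa* names were added after the data were seen. Positions and transcripts came from GENCODE M21 and promoters from RefSeq (GRCm38.p6). Values were computed with pandas 2.3.3 and numpy 2.4.6 under Python 3.11.15, transcripts were aligned with edlib 1.3.9.post1, and plots were drawn with matplotlib 3.10.9. Alternatives covered the pseudocount, the scaling, the reference genes and a filter on low values.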

Additional observations from a re-analysis of the deposited data

How the results depend on the processing

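No paired analysis was possible because each genotype has 1 library. Pseudocounts of 0.01 and 1, median centring, the FPKM sum, the upper quartile and a filter at 1 FPKM left every tested member higher in *Dnmt1*-KO, and the filter removed *Ang4* and *Mmp7*. A pseudocount of 1 left 2 genes with a ratio of at least 8. Centring on the pan-epithelial genes lowered the median log2 ratio to 2.10, the ratio of summed alpha-defensins to 5.31 and the genes at 8-fold or more to 1, and turned *Ang4* to -0.30. Centring on the enterocyte genes, chosen after seeing the data, gave 2.41, 6.59 and 1. Differences near 0.03 FPKM, the lowest value above 0, carry little weight, and *Mmp7* ranged from 0.82 to 6.29 on the log2 scale with the pseudocount. Keeping only members above 0 in both libraries, also chosen after seeing the data, left out *Mmp7* and gave a median of 3.05.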

Other observations

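The genes whose levels lay closest to the median Paneth cell gene (1.23 FPKM in *Dnmt1*-WT and 13.4 FPKM in *Dnmt1*-KO) in both libraries, by Euclidean distance in log2 of FPKM + 0.1, were *Cebpa* (1.34 and 14.41 FPKM), *H2-DMa* (1.31 and 10.75), *H2-DMb1* (1.4 and 10.7), *Cdo1* (1.03 and 16.56) and *Iigp1* (1.31 and 10.24). None of the 5 is on a list of gut epithelial genes used here. With 2 libraries this closeness rests on 2 values for each gene.

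Of 7 listed neutrophil genes, 5 were higher in *Dnmt1*-KO, 1 was lower and 1 was at 0 in both libraries. *Camp*, which encodes cathelicidin, was listed at 6.84 FPKM in *Dnmt1*-WT and 5.71 FPKM in *Dnmt1*-KO. *S100a8* was at 0 and 2.00 FPKM, *S100a9* at 0.33 and 0.44 FPKM and *Retnlg* at 0.67 and 4.06 FPKM, and *Mpo* was the gene at 0.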
